A study of Mus musculus with 16 samples.

Results

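The mitosis and spindle genes described here are 45 genes that act between entry into mitosis and the separation of daughter cells. They were measured in 16 MMTV-Neu mammary tumours, strain FvB. In MMTV-Neu mice the Neu oncogene is under the mouse mammary tumour virus promoter, active mainly in mammary epithelium. The groups were 9 secondary tumours each grown from a single tumour-initiating cell (single TIC), 2 secondary tumours grown from transplanted lineage-negative cells (lin-) and 5 primary tumours. Each tumour was under 1 cm in diameter per the labels, and total RNA of each was hybridised to 1 Illumina bead array. The labels give neither the genotype or age of the hosts nor whether tumours shared a donor, so p-values cover only the variation among these tumours. The study asked which genes differ in secondary tumours and how alike the tumours are.

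A gene was kept when the array annotation named a probe for it that was detected (detection p under 0.05) on at least 2 of the 16 arrays, and its probe with the highest mean was used. This kept 31 of the 45 genes, among 9903 genes tested from 25697 probes. No named probe was found for Ccnb1, Aurkb, Cenpf and Racgap1, which were not analysed here. Another 10 genes had a probe that was not detected on 2 arrays, namely Bub1, Ccnb2, Cenpe, Cks2, Ect2, Hmmr, Kif20a, Nek2, Nuf2 and Ttk. Of the 31 kept genes, 28 were detected on all 16 arrays. The other 3 were dim: Ccna2 was detected on 2 of 9 single TIC, 0 of 2 lin- and 2 of 5 primary arrays, Pttg1 on 5, 0 and 2, and Ube2c on 2, 1 and 0 in the same order. Between 12513 and 13163 probes were detected per array. All levels below are log2 normalised intensities, and a level is compared between tumours only within 1 probe.

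Cells enter mitosis when the kinase Cdk1, bound to a B-type or A-type cyclin, is activated by Cdc25 phosphatases, with Plk1 and Aurka building the spindle poles. The spindle checkpoint then holds Cdc20 and the anaphase-promoting complex in check until every kinetochore is attached. Separase then opens the cohesin rings, the spindle and its kinesins separate the chromosomes, and the cell divides. Most of these genes are transcribed late in the cell cycle, and complexes containing the MuvB core bind a promoter element named the cell cycle genes homology region (CHR), often next to boxes bound by the factor NF-Y. In bulk tumour RNA, fewer dividing cells and less of these transcripts per cell cannot be told apart.

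Promoters of the listed genes were searched for the CHR and the NF-Y box as a description. RefSeq promoter windows of assembly GRCm38.p6, from 250 bases before to 50 bases after the transcription start, were matched by symbol for 38 of the 45 genes and for 26 of the 31 kept ones. The CHR was searched as TTTGAA or TTCGAA and the NF-Y box as CCAAT, both on either strand, and a CHR word can share at most 1 letter with an adjoining NF-Y box. A CHR was found in 28 of the 38 genes (73.7%), against 21.7% of all 27025 genes with a promoter in the table. It lay within 50 bases of the start in 27 of the 38 genes (71.1%), against 6.12% of all genes. The NF-Y box was found in 30 of the 38 (78.9%), against 41.1% of all genes, and both words in 25 of the 38 (65.8%), against 8.61%. Neither word was found in the windows of Birc5, Mad2l1, Nusap1, Nuf2 and Pttg1. A match is a description of these letters and not a measured binding site. Shown from 100 bases before to 50 after the start are 10 windows, each 150 bases, chosen as those of 8 central genes given tumour by tumour below, of Kif4, which followed the rest of the list most closely, and of Spag5, which did not follow it. The capitals mark CHR and NF-Y box words, read on either strand.
Cdk1, chr10:69352863-69353012, minus strand: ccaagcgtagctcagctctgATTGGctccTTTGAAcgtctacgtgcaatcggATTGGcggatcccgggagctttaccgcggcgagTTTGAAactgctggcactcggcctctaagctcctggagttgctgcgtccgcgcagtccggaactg
Plk1, chr7:122159335-122159484, plus strand: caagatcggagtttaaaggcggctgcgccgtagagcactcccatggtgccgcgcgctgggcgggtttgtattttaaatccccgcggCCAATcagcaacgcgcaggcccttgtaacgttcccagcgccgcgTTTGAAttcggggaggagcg
Aurka, chr2:172370521-172370670, minus strand: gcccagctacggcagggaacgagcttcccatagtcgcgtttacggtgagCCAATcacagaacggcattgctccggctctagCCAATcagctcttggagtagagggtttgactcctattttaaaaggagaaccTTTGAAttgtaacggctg
Top2a, chr11:99024140-99024289, minus strand: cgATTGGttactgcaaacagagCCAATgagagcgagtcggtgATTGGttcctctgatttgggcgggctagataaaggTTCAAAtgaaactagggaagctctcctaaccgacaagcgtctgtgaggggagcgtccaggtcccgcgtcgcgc
Cdc20, chr4:118437294-118437443, minus strand: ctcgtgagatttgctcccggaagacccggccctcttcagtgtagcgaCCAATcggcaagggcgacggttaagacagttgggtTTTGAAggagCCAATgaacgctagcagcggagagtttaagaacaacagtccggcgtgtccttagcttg
Ube2c, chr2:164769829-164769978, plus strand: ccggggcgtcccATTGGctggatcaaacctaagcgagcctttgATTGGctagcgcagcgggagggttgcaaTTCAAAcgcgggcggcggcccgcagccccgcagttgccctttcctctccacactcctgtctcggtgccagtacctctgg
Birc5, chr11:117849137-117849286, plus strand: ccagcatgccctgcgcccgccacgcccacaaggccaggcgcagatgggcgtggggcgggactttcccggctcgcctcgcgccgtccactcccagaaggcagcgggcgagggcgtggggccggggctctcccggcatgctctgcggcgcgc
Mad2l1, chr6:66535121-66535270, plus strand: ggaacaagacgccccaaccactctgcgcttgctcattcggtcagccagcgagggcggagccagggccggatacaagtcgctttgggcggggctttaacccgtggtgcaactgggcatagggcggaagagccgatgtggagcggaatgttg
Kif4, chrX:100625965-100626114, plus strand: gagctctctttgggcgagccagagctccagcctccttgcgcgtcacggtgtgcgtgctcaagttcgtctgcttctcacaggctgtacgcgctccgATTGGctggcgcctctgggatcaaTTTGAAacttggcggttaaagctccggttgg
Spag5, chr11:78301491-78301640, plus strand: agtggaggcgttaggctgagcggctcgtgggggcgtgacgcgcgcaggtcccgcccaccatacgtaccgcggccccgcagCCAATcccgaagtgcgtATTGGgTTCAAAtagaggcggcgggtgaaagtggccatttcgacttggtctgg

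In 8 of the 10 windows both words were present. The Cdk1 window held 2 CHR words and 2 NF-Y boxes. The Birc5 and Mad2l1 windows held neither. The Spag5 and Kif4 windows each held both words. Whether these words go with how closely a gene followed the rest of the list was not tested.

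**Figure D1:**
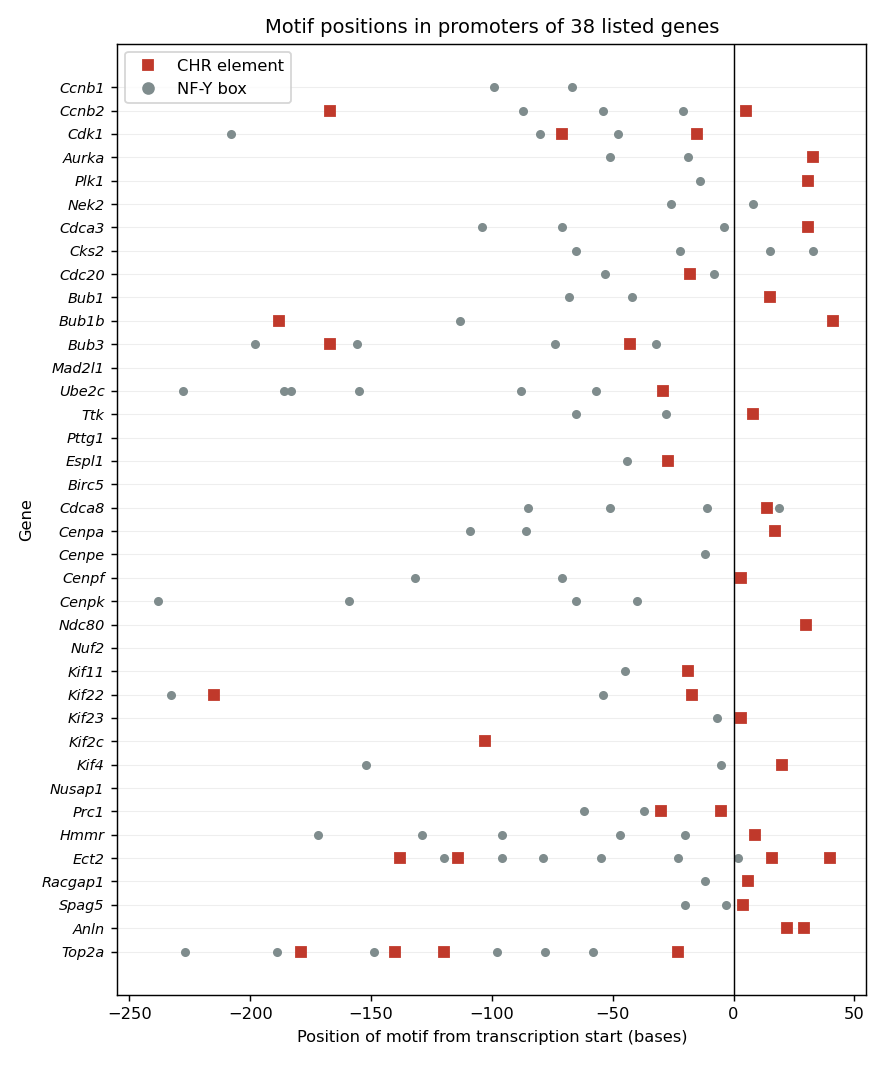
Position of each CHR word (red squares) and NF-Y box (grey circles) relative to the transcription start, in bases, for the 38 genes with a promoter window, ordered by role from top to bottom. Where a gene has several windows, each is drawn relative to its own start. Most red squares lie within 50 bases of the start.

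Single TIC tumours were compared with primary tumours first. No kept mitotic gene differed between the groups at an adjusted p under 0.05 (0 of 31 by limma with Benjamini-Hochberg adjustment), while 6.26% of all genes tested did (620 genes, and 18 with mean raw intensity in the fit). Leaving out primary 1 gave 294 genes, leaving out primary 3 gave 262, and leaving out primary 5 gave 278. At an unadjusted p under 0.05 there were 2 of 31, Tpx2 and Plk1, against 25.3% of all genes. The fitted change was above 0 for 26 of 31 genes, with a median of 0.20 on the log2 scale, against a median of -0.02 over all genes. No gene of the list had single TIC and primary tumours that did not overlap, against 2.48% of all genes. The median depended on 2 primary tumours, described below: without both of them it was -0.31, with 3 of 31 genes above 0.

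Among the kinases of mitotic entry, Plk1, which drives spindle pole maturation, ran from 9.66 through a median of 10.26 to 11.15 in single TIC tumours, was 10.15 and 10.16 in the lin- tumours, and was 10.56, 9.01, 9.73, 10.27 and 8.81 in primary tumours 1 to 5. Primary 2 and primary 5 lay below all other tumours, and the other 3 primary tumours lay among the secondary ones. The change, single TIC minus primary, was 0.70 (SE 0.29, 95% interval 0.07 to 1.32, limma adjusted p = 0.152). For Aurka, the kinase of the spindle poles, single TIC tumours ran from 8.84 through 9.68 to 10.48, lin- tumours had 9.54 and 9.08, and primary tumours had 9.85, 8.34, 9.23, 9.54 and 8.70. Primary 2 and 5 were again the lowest pair, and the change was 0.53 (SE 0.30, limma adjusted p = 0.279). Single TIC 4 had the highest level and single TIC 9 the lowest of its group.

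Cdk1, the kinase that starts mitosis, had levels from 10.004 through 10.83 to 11.35 in single TIC tumours, 10.56 and 10.73 in lin- tumours and 10.77, 9.91, 10.86, 11.02 and 9.26 in primary tumours. Primary 5 was lowest and single TIC 2 highest of the 16. The change of 0.41 (SE 0.27, limma adjusted p = 0.348) did not pass. Foxm1, a transcription factor of late cell cycle genes, ran from 7.47 through 8.03 to 8.69 in single TIC tumours, was 7.89 and 7.85 in lin- tumours and was 8.73, 7.49, 8.02, 8.17 and 7.18 in primary tumours. The highest Foxm1 level was in primary 1, and all 9 single TIC tumours lay within the primary range. Its change was 0.15 (SE 0.25, limma adjusted p = 0.749).

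Cdc25c, a phosphatase that activates Cdk1, was one of the 3 genes with the smallest changes (-0.03, SE 0.25, limma adjusted p = 0.965). Its single TIC levels ran from 7.23 through 7.75 to 8.40, its lin- levels were 7.76 and 7.35, and its primary levels were 8.37, 6.91, 8.21, 8.26 and 7.36. Primary 2 was the lowest of all tumours, and primary 1, 3 and 4 were above most single TIC tumours. Cdca3, which promotes degradation of an inhibitor of mitotic entry, changed by 0.33 (limma adjusted p = 0.420), and Ccna2, the A-type cyclin, had a fitted change of 0.04 at levels near background. Of the 7 kept genes of mitotic entry, 6 had a change above 0 and 0 passed.

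Cdc20, the activator of the anaphase-promoting complex, ran from 10.12 through 10.67 to 11.39 in single TIC tumours, was 10.82 and 10.47 in lin- tumours and was 11.47, 9.97, 11.01, 10.90 and 10.01 in primary tumours. All 9 single TIC tumours lay within the primary range, and the change was 0.09 (SE 0.25, limma adjusted p = 0.857). Mad2l1, a checkpoint protein that holds back Cdc20, ran from 10.24 through 10.74 to 11.16 in single TIC tumours, was 10.42 and 10.62 in lin- tumours and was 10.77, 9.93, 10.73, 11.04 and 9.70 in primary tumours. The change was 0.31 (SE 0.20, limma adjusted p = 0.349). Primary 2 and 5 were the only 2 tumours below 10 for this gene.

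Bub3, a checkpoint protein of kinetochores that is also expressed outside mitosis, varied least in the list. Its levels ran from 7.94 through 8.12 to 8.48 in single TIC tumours, were 7.95 and 8.31 in lin- tumours and were 8.36, 7.93, 8.15, 8.15 and 8.10 in primary tumours. Its change was -0.01 (SE 0.10, 95% interval -0.22 to 0.21, limma adjusted p = 0.978). Its SD over 16 tumours was 0.16, against a median SD of 0.52 over the 31 genes and 0.28 over all genes.

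Espl1, the separase that cuts cohesin at anaphase, had the most negative change in the list, -0.55 (SE 0.32, 95% interval -1.22 to 0.13, limma adjusted p = 0.295). Single TIC tumours ran from 6.16 through 7.004 to 7.79, lin- tumours had 6.82 and 6.15, and primary tumours had 8.34, 6.82, 8.09, 7.68 and 6.61. Primary 1 and primary 3 lay above every secondary tumour, and primary 2 and primary 5 lay within the range of the secondary tumours. Ube2c, the ubiquitin-conjugating enzyme of the anaphase-promoting complex, was dim and ran from 4.86 through 5.13 to 6.31 in single TIC tumours, was 5.87 and 5.35 in lin- tumours and was 5.52, 4.59, 5.01, 5.48 and 4.81 in primary tumours. It was not well above background on any primary array, and no fold is given because the bound was under 1. Pttg1, the securin that restrains separase, passed detection on 5 of the 9 single TIC arrays and on neither lin- array. Set against the lowest detected signal, its single TIC mean gave a bound of 1.03-fold over lin- tumours, with a limma adjusted p of 1.00, and lin- 1 lay above single TIC 1, 5, 8 and 9. Of the 7 kept genes of the checkpoint and anaphase, 5 had a change above 0.

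Birc5, or survivin, the subunit that brings the chromosomal passenger complex to centromeres, ran from 10.03 through 10.56 to 11.53 in single TIC tumours, was 10.36 and 10.49 in lin- tumours and was 11.05, 9.76, 10.74, 10.83 and 9.23 in primary tumours. Its change was 0.36 (SE 0.28, limma adjusted p = 0.442). Incenp, the scaffold of the same complex, had 7.90 through 8.22 to 8.87 in single TIC tumours, 8.29 and 8.36 in lin- tumours and 9.25, 7.67, 8.60, 8.63 and 7.73 in primary tumours. All 9 single TIC tumours were within the primary range of Incenp, and the change was -0.02 (SE 0.24, limma adjusted p = 0.978). Cdca8, or borealin, the third kept subunit, changed by 0.29 (SE 0.27, limma adjusted p = 0.540), with single TIC 1 at 7.04 lowest in its group.

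All 3 kept genes of the centromere and kinetochore had changes above 0: Cenpa, the centromeric histone, 0.30, Cenpk, a subunit of the inner kinetochore, 0.28, and Ndc80, which binds spindle microtubules, 0.20. None passed, and the smallest limma adjusted p of the 3 was 0.402. The 5 kept kinesins had small changes, from 0.04 for Kif11, the motor that pushes spindle poles apart, to 0.17 for Kif2c, which depolymerises microtubules at kinetochores. The smallest limma adjusted p among the kinesins was 0.750. Top2a, the topoisomerase that untangles sister chromatids, ran from 9.70 through 10.09 to 10.80 in single TIC tumours, was 9.99 and 9.84 in lin- tumours and was 10.47, 8.93, 10.50, 10.52 and 9.05 in primary tumours. The change of Top2a was 0.23 (SE 0.28, limma adjusted p = 0.638), and 2 of the 5 primary tumours lay below all secondary tumours.

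Tpx2, which activates Aurka on spindle microtubules, had the largest change in the list, 0.85 (SE 0.35, 95% interval 0.11 to 1.58, 1.80-fold, limma adjusted p = 0.142). Its levels ran from 7.59 through 8.58 to 9.20 in single TIC tumours, were 8.21 and 8.28 in lin- tumours and were 8.58, 6.54, 7.90, 8.63 and 6.83 in primary tumours. The mean of the primary tumours was exceeded in 8 of 9 single TIC tumours, and primary 2 and 5 were below every other tumour. Without primary 2 the change was 0.56, and without both primary 2 and 5 it was 0.17. Nusap1, which bundles spindle microtubules, changed by 0.46 (SE 0.34, limma adjusted p = 0.421), Prc1, which bundles the central spindle, by 0.32 (limma adjusted p = 0.530), and Anln, a scaffold of the cleavage furrow, by 0.06 (limma adjusted p = 0.930).

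**Figure D2:**
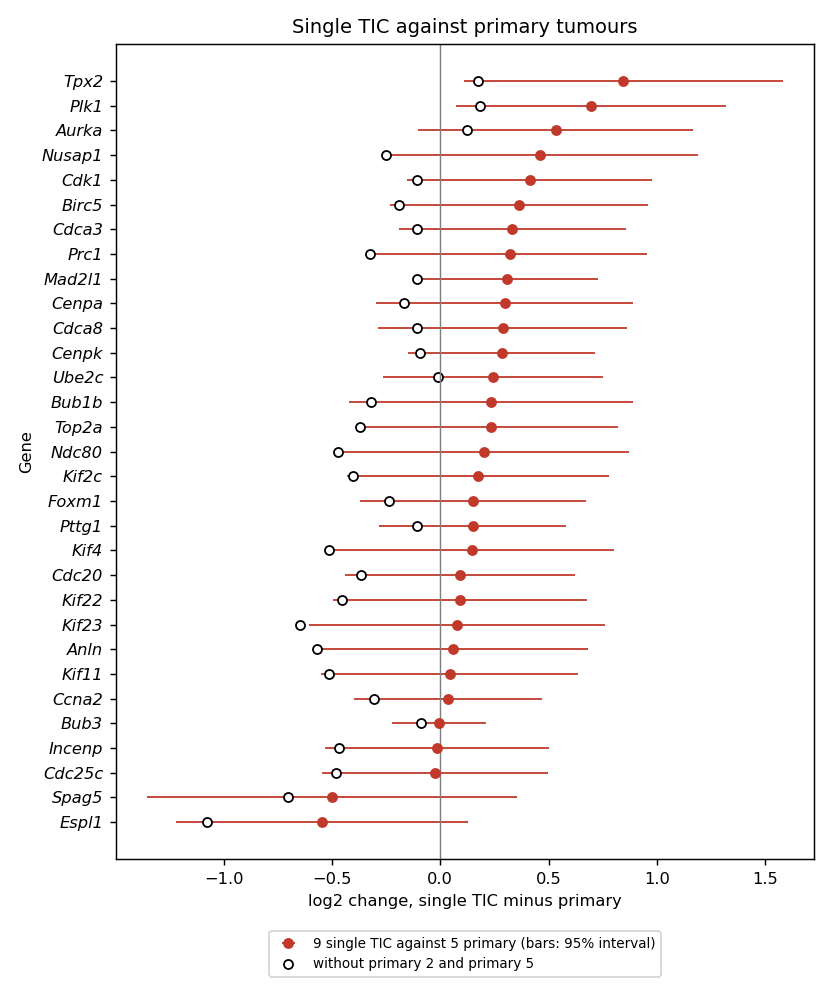
Fitted log2 change, single TIC minus primary, for each of the 31 genes (red points, bars are 95% intervals) and the same change with primary 2 and primary 5 left out (open circles). Intervals cover 0 for all genes but Tpx2 and Plk1, and without the pair 28 of the 31 open circles lie below 0.

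Spag5, or astrin, a spindle and kinetochore protein, departed from the rest. Its levels ran from 10.47 in single TIC 4 through a median of 12.58 to 13.54 in single TIC 3, were 12.17 and 12.99 in lin- tumours and were 13.50, 12.01, 13.08, 13.03 and 13.38 in primary tumours. Primary 5, near the bottom for most genes of the list, was among the highest for Spag5, and single TIC 4, near the top for most, was lowest. The change was -0.50 (SE 0.40, limma adjusted p = 0.464). Its Pearson r over 16 tumours with the mean of the other 30 genes was -0.12, and -0.24 and -0.35 for its other kept probes, while the 3 probes correlated with each other at 0.74 to 0.89. Another probe-level departure was in Cdc20, where 3 of 4 kept probes had r of 0.92 to 0.94 with the rest of the list and a change of 0.00 to 0.09, and the fourth had r = 0.23 and a change of 0.71. Of the 10 genes with more than 1 kept probe, 4 had kept probes that differed in direction.

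**Figure D3:**
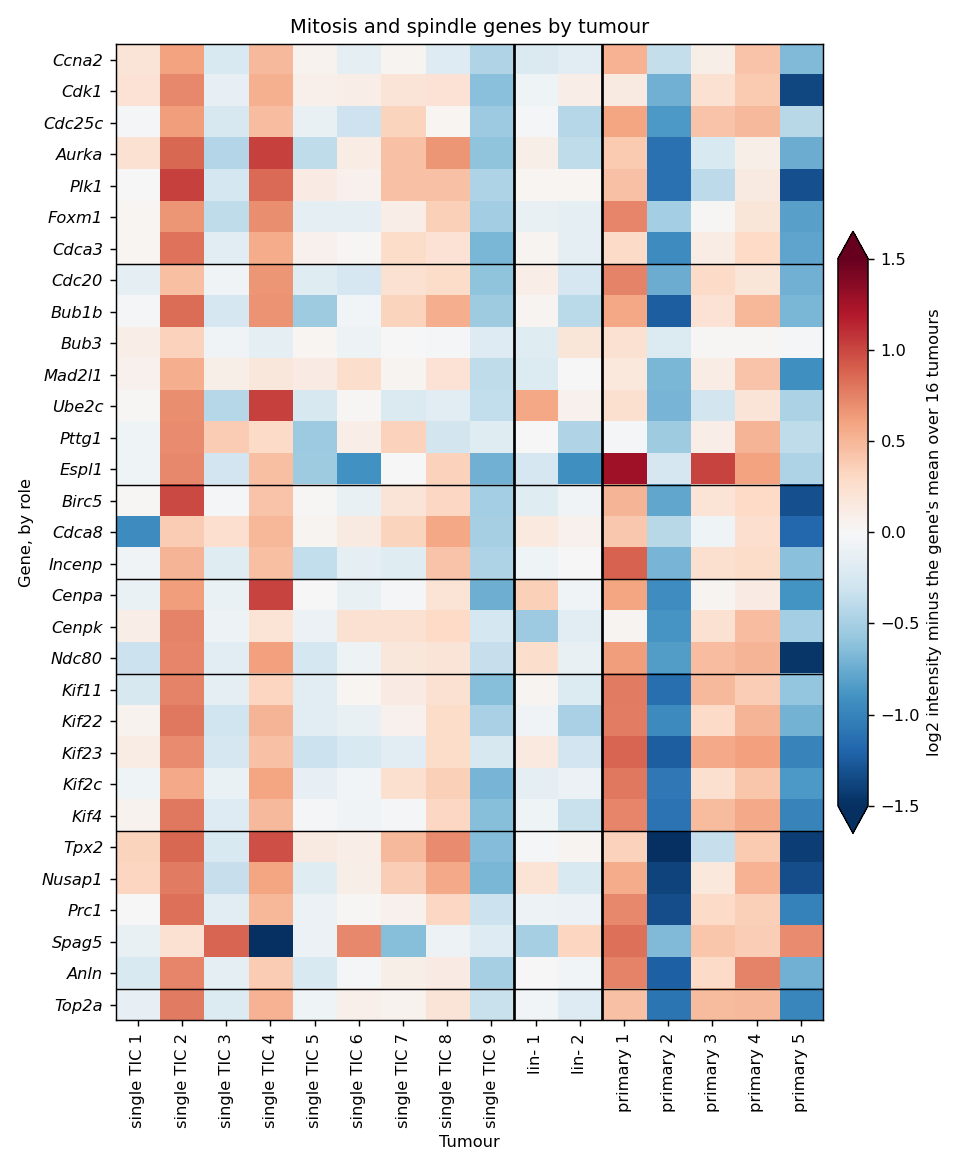
Level of each of the 31 genes (rows, grouped by role) in each of the 16 tumours (columns: 9 single TIC, 2 lin-, 5 primary), after subtracting each gene's own 16-tumour mean from its log2 intensity, with colours ending at -1.5 and 1.5. Primary 2 and primary 5 are blue in most rows and single TIC 2 is red in all of them, and the Spag5 row does not follow the others.

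For the order of tumours, each gene's own 16-tumour mean was subtracted from its log2 intensities, and the 31 differences were averaged within each tumour. From low to high the values were -0.88 in primary 2, -0.80 in primary 5, -0.49 in single TIC 9, -0.16 in lin- 2, -0.13 in single TIC 5 and in single TIC 3, and -0.02 in lin- 1, in single TIC 6 and in single TIC 1. They went on with 0.13 in single TIC 7, 0.20 in primary 3, 0.26 in single TIC 8, 0.38 in primary 4, 0.45 in single TIC 4, 0.55 in primary 1 and 0.69 in single TIC 2. Primary tumours held both lowest places and 3 of the upper 6, and counted from the highest tumour lin- 1 was number 10 and lin- 2 number 13 of 16. The range of 1.57 compares with an SD within groups of 0.47. Group means were 0.08 ± 0.35 in 9 single TIC, -0.09 ± 0.09 in 2 lin- and -0.11 ± 0.68 in 5 primary tumours (SD).

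Neighbours in that order were compared by how many genes were higher in one than in the other. The same 31 genes set the order and moved together across tumours, so the counts are a description and not separate evidence for it. From primary 5 to single TIC 9, 26 of 31 genes were higher in single TIC 9, and from single TIC 9 to lin- 2, 28 of 31 were higher in lin- 2. In the middle, 16 of 31 genes were higher in single TIC 5 than in lin- 2, 13 of 31 in single TIC 3 than in single TIC 5, and 15 of 31 in single TIC 6 than in lin- 1. Other middle steps were less even, with 23 of 31 higher in lin- 1 than in single TIC 3. For single TIC 7 over single TIC 1 it was 22 of 31. For single TIC 1 over single TIC 6 it was 19 of 31, though the means differed by only 0.0005. At the top, 21 of 31 genes were higher in single TIC 2 than in primary 1, and 17 of 31 in primary 1 than in single TIC 4. At the bottom, 22 of 31 genes were higher in primary 5 than in primary 2.

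**Figure D4:**
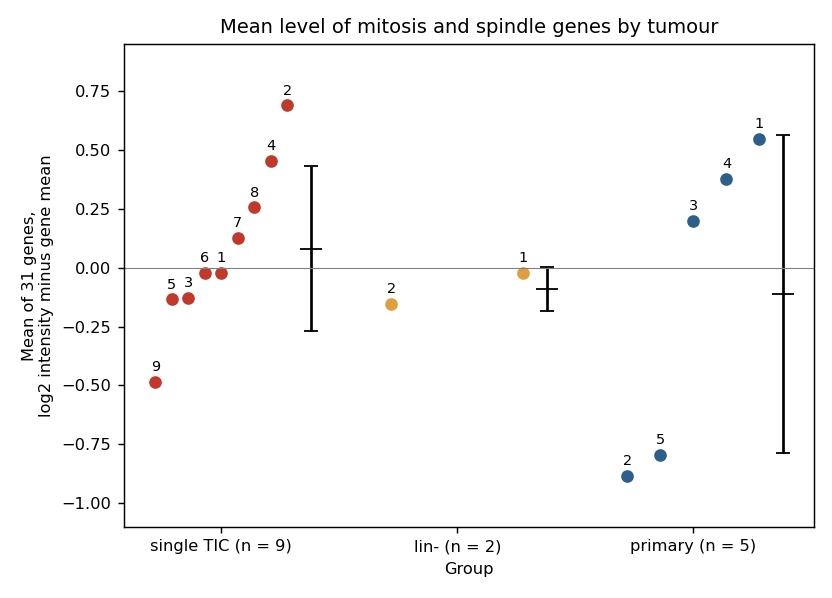
Mean of the 31 genes in each tumour (points, numbered by tumour within group, log2 intensity minus gene mean), with the group mean and SD as black bars (9 single TIC, 2 lin- and 5 primary tumours). Primary 2 and primary 5 lie below every other tumour, and the other 3 primary tumours lie between 0.20 and 0.55.

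Primary 2 was the lowest of 16 tumours for 20 of the 31 genes and primary 5 for 8, together 28, against 21.2% of all genes with either of them lowest. Single TIC 2 was highest for 17 genes, against 6.27% of all genes. The SD within primary tumours exceeded that within single TIC tumours for 28 of 31 genes, against 52.4% of all genes. The median SD was 0.40 in single TIC and 0.75 in primary tumours for the list, and 0.25 and 0.26 for all genes.

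The pair primary 2 and primary 5 also stood apart on other genes. When tumours were clustered on all genes outside the list, these 2 joined each other and then joined the remaining tumours last but 1, before single TIC 4. The pair was picked after the data were seen, and it was also the lowest for the list, so results without it are a description. Without the pair the median change was -0.31 for single TIC against primary tumours, and without single TIC 4 as well it was -0.36. Leaving out primary 2 alone gave a median of 0.03 and leaving out primary 5 alone 0.02, each with 16 of 31 genes above 0. With array weights the median was -0.01, with 14 of 31 above 0.

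Other measures were also at their extremes in some of these tumours. The mean of 10 of 12 listed fibroblast markers, scored in the same way, ran from -0.94 to 1.01 in single TIC tumours, from 0.42 to 0.70 in lin- tumours and from -1.93 to 0.84 in primary tumours, with -1.93 in primary 2 and -1.44 in primary 5. Primary 4, whose mitotic mean was 0.38, had a fibroblast score of -1.22. For 9 of 11 endothelial markers it ran from -0.19 to 0.56 in single TIC, from 0.17 to 0.35 in lin- and from -2.31 to 0.35 in primary tumours, with -2.31 in primary 2 and -1.07 in primary 5. For 6 of 11 T and NK cell markers primary 2 was highest of all tumours at 2.30 and primary 5 lowest at -1.27. The score of 5 of 9 basal epithelial markers was -1.49 in primary 2 and -0.12 in primary 5, and that of 11 of 14 macrophage markers was 0.31 and -1.17. Of the measured markers, 3 fibroblast, 2 endothelial, 1 basal, 11 macrophage and 0 T and NK cell genes were detected on all 16 arrays. The Pearson r of these scores with the mitotic mean over 16 tumours was 0.73 for endothelial and 0.56 for fibroblast markers. It was 0.22 for basal, -0.08 for macrophage and -0.22 for T and NK cell markers. Within the 9 single TIC tumours it was 0.28, 0.27, -0.52, -0.74 and 0.14 in the same order. Mean raw intensity was 961 ± 52.4 in single TIC and 882 ± 57.1 in primary tumours (SD, n = 9 and 5, two-sided exact permutation p = 0.0225), and was 805, the lowest, in primary 5 and 899 in primary 2. The part of these measures in the result was not tested, and with mean raw intensity in the fit the median change of the list was 0.19, with 29 of 31 above 0.

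Luminal epithelial markers were also read. Of 13 luminal markers 10 were measured and all 10 were detected on 16 arrays, among them Krt8 and Krt18, keratins of luminal cells. In mean level Krt8 was at percentile 98.2 of all genes and Spint1, the dimmest of the 10, at 43.6. The luminal score had an r of 0.01 with the mitotic mean over 16 tumours and ran from -0.29 to 0.17 in single TIC tumours, from -0.18 to 0.16 in lin- tumours and from -0.05 to 0.08 in primary tumours. In single TIC against primary tumours 2 of the 10 passed, the tight junction gene Cldn7 at 0.54 (limma adjusted p = 0.0179) and the splicing factor gene Esrp1 at -0.28 (limma adjusted p = 0.0437). Over all genes 6.26% passed, which was 620 genes, and 18 with mean raw intensity in the fit.

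In lin- against primary tumours, 0 of 31 genes passed and 0% of all genes did (limma). At an unadjusted p under 0.05 there was 1 gene of the list, Espl1, against 9.85% of all genes. Espl1 changed by -1.02 (SE 0.48, 95% interval -2.04 to -0.01, limma adjusted p = 0.499), and both lin- tumours were below primary 1, primary 3 and primary 4. The median change of the list was -0.01, with 15 of 31 genes above 0, and -0.02 over all genes. The list's median was 0.17 without primary 1 (24 of 31 above 0), -0.20 without primary 2 (8 of 31) and -0.48 without both primary 2 and primary 5 (1 of 31, the dim Ube2c). Tpx2 had 0.55 and Plk1 0.48, with limma adjusted p-values of 0.791 and 0.786. All 5 kinesins had changes below 0, from -0.25 to -0.02. Only 2 lin- tumours were measured, which limits the precision.

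In single TIC against lin- tumours, 0 of 31 genes and 0% of all genes passed (limma), and at an unadjusted p under 0.05 there were 0 of 31 against 1.69% of all genes. Changes were above 0 for 26 of 31 genes, with a median of 0.20 against -0.01 over all genes. Cenpk had the smallest p, with 7.997 through 8.46 to 8.996 in single TIC tumours, 7.72 and 8.09 in lin- tumours and 8.30, 7.38, 8.48, 8.72 and 7.75 in primary tumours. Its change, single TIC minus lin-, was 0.51 (SE 0.28, 95% interval -0.10 to 1.11, limma adjusted p = 1.00), and lin- 2 lay within the single TIC range.

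For all 11 secondary tumours against the 5 primary tumours, which share tumours with the comparisons above, 0 of 31 genes passed, against 7.65% of all genes (limma), which was 758 genes, and 32 with mean raw intensity in the fit. Without primary 1, primary 3 or primary 5 that number was 432, 387 or 373. At an unadjusted p under 0.05 there were 2 of 31, Tpx2 and Plk1, against 26.3% of all genes. Tpx2 changed by 0.79 (SE 0.33, limma adjusted p = 0.138), Plk1 by 0.66 (SE 0.28, limma adjusted p = 0.145) and Espl1 by -0.63 (SE 0.31, limma adjusted p = 0.202). The median was 0.18, with 25 of 31 above 0. Without primary 2 and primary 5 the median was -0.35, and Espl1 then passed at -1.16 (limma adjusted p = 0.0436).

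Across the 16 tumours the genes moved together. The median Pearson r over the 465 pairs of genes was 0.83, and 88.4% of pairs were above 0.5, while the median r of list genes with all other genes was 0.01. These correlations share arrays and normalisation and are a description. Within the 9 single TIC tumours alone, which leave out both low primary tumours, the median r was 0.86. Kif4, a chromosome-bound kinesin, followed the mean of the other 30 genes most closely (r = 0.98), followed by Kif2c and Prc1, both at 0.98, Top2a and Kif22, each at 0.97. Birc5 and Mad2l1 had r of 0.95 and 0.89. Lowest were Spag5 at -0.12, Bub3 at 0.56, Espl1 at 0.67 and Pttg1 at 0.67.

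Outside the list, the genes closest to the mitotic mean over 16 tumours were Sgo1, which protects centromeric cohesion (r = 0.97), Depdc1b (0.95), the kinesin Kif18b (0.95), the kinetochore gene Cenpn (0.94), the cyclin-dependent kinase inhibitor Cdkn2d (0.94) and Cdca2 (0.94). Next came the histone genes H2ac22 and H2ac10 (0.93 each) and the kinetochore genes Cenpi and Cenph (0.93 each). At the other end were Mzt1 (-0.84), Lzts2 (-0.81), Os9 (-0.79), Hacl1 (-0.79) and Gaa (-0.78). Primary 5 was the lowest tumour for 9 of the first 10 genes, and primary 2 for Cdca2. The genes were picked by likeness to a mean that was lowest in these 2 tumours, so this largely follows from the choice.

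Other cell cycle lists were read in the same way. Over 16 tumours their means had a Pearson r with the mitotic mean of 0.96 for other spindle and cytokinesis genes, 0.95 for other kinetochore genes, 0.92 for condensin and cohesin, 0.90 for regulators of mitotic entry, 0.65 for G1 genes and 0.45 for the anaphase-promoting complex. In single TIC against primary tumours, all 18 measured DNA replication genes of 23 had changes above 0 (median 0.29) and 0 passed; the largest were the replication clamp Pcna (0.61, SE 0.18, limma adjusted p = 0.0519), the helicase loader Cdc6 (0.56, adjusted p = 0.0880) and Tyms, which makes thymidylate (0.45, adjusted p = 0.137). Of 12 other kinetochore genes 10 were above 0 and 0 passed, with Spc25 at 0.78 (SE 0.25, limma adjusted p = 0.0689). All 8 other spindle and cytokinesis genes were above 0 (median 0.12) and 0 passed. Primary 2 and primary 5 were the lowest tumours on the replication, kinetochore and spindle means. They had -0.35 and -0.75 for replication, -0.50 and -0.83 for kinetochore, and -1.11 and -0.49 for spindle genes. Primary 1, 3 and 4 had 0.03, 0.17 and 0.05, then 0.34, 0.18 and 0.23, and 0.40, 0.24 and 0.47 in the same order. Single TIC tumours averaged 0.14, 0.10 and 0.08. Fits without primary 2 and 5 are not given for these lists. Condensin and cohesin had 4 of 9 above 0, the anaphase-promoting complex 3 of 12, and regulators of mitotic entry 6 of 10, with 0 passing in each. The mean of the anaphase-promoting complex list had a range of 0.26 over the 16 tumours, against 1.57 for the mitotic list. Of 19 G1 cyclins, E2F factors and inhibitors, 14 were above 0 and 1 passed, against the 6.26% of all genes, namely Ccne2, a cyclin of the G1 to S transition (0.85, SE 0.21, limma adjusted p = 0.0270). E2f1, a transcription factor of S-phase genes, had 0.93 (limma adjusted p = 0.0514), and the inhibitors Cdkn1a and Cdkn2b had 1.10 and 0.91 (adjusted p = 0.148 and 0.127).

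The mitotic and replication means had a Pearson r of 0.85 and a Spearman rho of 0.90 over 16 tumours, and r = 0.94 within the 9 single TIC tumours, given as a description. The replication mean lay above the mitotic mean in 6 of 9 single TIC, 0 of 2 lin- and 2 of 5 primary tumours, the last being primary 2 and primary 5. Its range was smaller, 1.31 against 1.57, and the part of this difference in scale in these counts was not tested. Single TIC 2 had a mitotic mean of 0.69 beside a replication mean of 0.56, single TIC 4 had 0.45 beside 0.51, and single TIC 8 had 0.26 beside 0.32. The lin- tumours had mitotic means of -0.02 and -0.16 beside replication means of -0.19 and -0.20. Primary tumours 1 and 4 had mitotic means of 0.55 and 0.38 beside replication means of 0.03 and 0.05, and primary 3 had 0.20 beside 0.17.

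**Figure D5:**
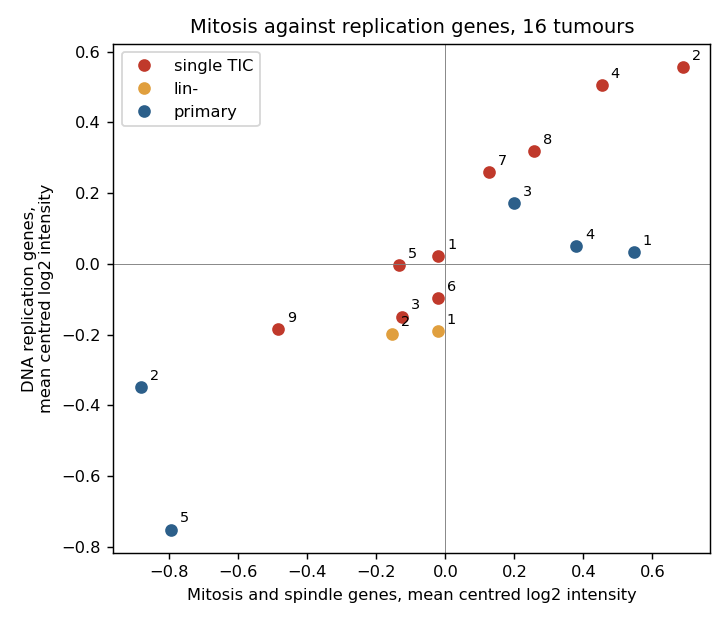
Mean of the mitosis and spindle genes (x axis) against the mean of the DNA replication genes (y axis) in each of the 16 tumours, both as log2 intensity minus gene mean, numbered within group. Primary 2 and 5 lie at the lower left, and primary 1 and 4 lie below single TIC tumours 4 and 8 on the y axis.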

How the data were processed

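Per the file headers, the deposited non-normalized table gives the linear intensity of each of 25697 probes in each tumour beside its detection p-value. The submitters' processing notes name BeadStudio, and no source used here gives its version, its background steps or a genome build. The authors' processed table, judged from its values, holds quantile-normalized intensity on a linear scale and served as an alternative.

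With limma 3.58.1 in R 4.3.3, intensities were background-corrected by normexp (function nec, detection p-values, offset 16), quantile-normalized and log2-transformed, which understates changes of dim genes. Probes detected on at least 2 arrays were kept (14520, of which 13681 were named by the array annotation, 1 symbol for each of 23978 probes and none for 1719), and each of 9903 genes took its brightest probe. Groups were fitted as 3 means with lmFit and eBayes, and all secondary against primary tumours as 2 means. Tests were two-sided with Benjamini-Hochberg adjustment over 9903 genes, called under 0.05. No count of reads underlies the values, so the number of arrays limits the precision.

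Listed genes and other lists were chosen with earlier results of these data known, so no list was tested. Tumours given values one by one were reported for central genes of each role, the 3 largest and 3 smallest changes and the smallest p in each comparison. Tumour numbers follow no label. Alternatives covered the authors' values, background, offset, detection filter, probe choice, array weights, raw intensity, eBayes settings and leaving out tumours. Bounds for genes undetected in a group set the brighter mean against the lowest detected signal.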

Additional observations from a re-analysis of the deposited data

Results flagged for a closer look

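The level of Spag5 in single TIC 4 was 10.47, and the nearest other single TIC tumour was at 12.03, a gap of 0.508 of the whole range of the 9 tumours. This gap was above the 95% critical value of Dixon's test. It was the 1 case past that value among 66 groups of tumours examined over the 31 genes and the tumour means, where chance alone gives about 1 in 20 groups.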

How the results depend on the processing

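Under the settings chosen with the samples fixed (the authors' values, background, offset, detection filter, probe choice, array weights, raw intensity, eBayes settings) 0 listed genes passed in any of the 4 comparisons, and the 3 lowest and 3 highest tumours of the mitotic order were the same in the 6 settings run for it, with a range of 1.21 to 1.61. No paired analysis was possible because the labels do not give which tumours shared a donor. Sample size, with 2 lin- and 5 primary tumours, limits every interval, and dim genes sit near background.

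The median change, single TIC against primary, ran from 0.02 to 0.35 when tumours were left out in turn, that of lin- against primary from -0.20 to 0.17, of single TIC against lin- from 0.12 to 0.28 and of all secondary against primary from -0.02 to 0.34. Leaving out primary 2 and primary 5, an alternative chosen after the data were seen, gave medians of -0.31, -0.48 and -0.35 for single TIC, lin- and all secondary against primary tumours, and 1 listed gene passed in the last, Espl1 at -1.16. Leaving out single TIC 4 too gave -0.36, -0.48 and -0.39, and 2 passed, Espl1 and Kif23.

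For single genes, single TIC against primary, the sign turned for Kif11 -0.0033 with the authors' values, for Kif11 -0.0055 and Kif23 -0.00048 without background correction, for Cdc25c 0.051, Ndc80 -0.014 and Anln -0.030 with the mean of kept probes, for Cdc25c 0.075, Bub3 0.024 and Incenp 0.021 with raw intensity in the fit, and for Top2a -0.032, Ccna2 -0.13, Cdc20 -0.095, Bub1b -0.0063, Kif11 -0.18, Kif22 -0.13, Kif23 -0.22, Kif2c -0.052, Kif4 -0.12, Foxm1 -0.00042, Ndc80 -0.074 and Anln -0.19 with array weights. Without primary 2 and 5 it turned for Top2a -0.37, Ccna2 -0.31, Cdk1 -0.11, Cdc20 -0.36, Bub1b -0.32, Mad2l1 -0.11, Birc5 -0.19, Kif11 -0.52, Kif22 -0.45, Kif23 -0.65, Kif2c -0.40, Kif4 -0.51, Cenpa -0.17, Cenpk -0.093, Ube2c -0.0098, Foxm1 -0.24, Nusap1 -0.25, Prc1 -0.33, Cdca3 -0.11, Cdca8 -0.11, Ndc80 -0.47, Pttg1 -0.11 and Anln -0.57. Ube2c was not well above background on any primary array, so its sign is not read. In lin- against primary tumours, where single values were followed for 3 genes, it turned for Plk1, at -0.03, and 1 of 31 genes was above 0 in all, against 15 with every tumour. With 1 tumour left out in turn, changes that crossed 0 ran over Top2a -0.0068 to 0.39, Ccna2 -0.13 to 0.17, Cdc20 -0.083 to 0.29, Cdc25c -0.25 to 0.11, Bub1b -0.041 to 0.41, Bub3 -0.059 to 0.050, Kif11 -0.24 to 0.24, Kif22 -0.14 to 0.29, Kif23 -0.22 to 0.30, Kif2c -0.069 to 0.39, Kif4 -0.11 to 0.35, Foxm1 -0.034 to 0.35, Incenp -0.19 to 0.20, Ndc80 -0.13 to 0.39 and Anln -0.24 to 0.25. The cause was not tested.

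Over all genes, the count passing in single TIC against primary was 620, ran from 262 to 784 when tumours were left out in turn (294 without primary 1, 262 without primary 3 and 278 without primary 5) and was 18 with raw intensity in the fit. For all secondary against primary it was 758, 373 to 947 (432, 387 and 373 without primary 1, 3 and 5) and 32. For lin- against primary it was 0, and 1 with the authors' values, without background correction, with offset 50, without the filter and with a trend, 10 with array weights, 5 without primary 2 and 5, 3 without single TIC 4 too, and 0 to 7 with tumours left out. For single TIC against lin- it was 0, 1 with array weights, and 0 to 1 with tumours left out. Counting each promoter once gave 72.1% with a CHR, against 19.2% of all promoters, and 81.4% with an NF-Y box, against 37.4%.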
